A study of Homo sapiens with 12 samples.

Results

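SKBR-3 is a human breast cancer cell line with many copies of ERBB2, the gene of the HER2 receptor, and lapatinib is a small molecule that blocks the kinases of HER2 and EGFR. The response described here is that of SKBR-3 cells whose FOXA1 was left intact. These cells carried a non-targeting (NT) siRNA and then received DMSO, the solvent, for 24 h or 300 nM lapatinib for as long, with 3 samples in each group. The labels give 48 h of siRNA before the drug. RNA was sequenced and counted per gene, and these 6 samples were taken by their labels from the 12 of the series. The other 6 samples received a FOXA1 siRNA and the same treatments. They enter only as the test of whether a response differed between the siRNAs. All 12 samples are the same line with an siRNA, so the DMSO samples are transfected cells and not untouched ones. The labels do not say whether the samples of a group came from separate cultures, and the p-values measure the spread between these samples, which may be technical.

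HER2 pairs with HER3 and EGFR and passes its signal along a pair of main routes. The RAS and ERK route ends in transcription factors of the ETS and AP-1 families and switches on its own inhibitors, the Sprouty and DUSP proteins. The PI3K and AKT route keeps the FOXO factors out of the nucleus, feeds mTOR and supports ribosome production, lipid synthesis and glucose use. Both routes raise cyclin D1, which releases the E2F factors from RB and starts DNA replication.

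Gene totals were between 30112796 and 31643469 expected counts in the DMSO samples and between 25749578 and 30628110 in the lapatinib samples. FOXA1, the targeted gene of the series, was at 8444, 8307 and 8765 normalized counts in replicates 1 to 3 of the DMSO samples with NT siRNA and at 12670, 12170 and 13170 in the lapatinib samples. Normalized counts are expected counts scaled to the mean depth of the 12 samples, and values are given in the order of the replicates throughout. The DMSO samples with FOXA1 siRNA had 1160, 1362 and 1563 and the lapatinib samples 1641, 1888 and 2383, so each sample with FOXA1 siRNA was below each sample with NT siRNA. Replicate 2 stood apart in both groups. Its counts differed from those of replicates 1 and 3 by a chi-square per degree of freedom of 15.8 to 17.6, against 3.62 between replicates 1 and 3 in DMSO and 4.6 in lapatinib. Counts of calls are therefore also given without replicate 2 where that changed them by more than 1.5 times. A list of 10 genes for the identity of SKBR-3 cells, with ERBB2 and the keratins KRT8, KRT18 and KRT19 among them, was measured in full. It includes CDH1, which SKBR-3 cells are known to lack and which had few counts, so CDH1 does not mark the line. ESR1, the oestrogen receptor, was at 15.8, 12.9 and 15.3 normalized counts in DMSO, and PGR, the progesterone receptor, had at most 1 count in a sample. Of 17 markers of blood, endothelial, stromal and fat cells, 10 had fewer than 10 counts in each of the 6 samples, and MS4A1, LUM and HBB had 0 counts. The summed level of the 17 markers was 30 to 44 TPM (a measure of level corrected for transcript length and depth) in DMSO and 37.4 to 51.7 in lapatinib. Among the 7 tested, CDH5 and COL1A1 were lower with lapatinib and CD68 and PLIN1 were higher, and the part of other cells in any result was not tested.

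Lapatinib changed more genes than it left within the spread of the samples. Of 13713 genes with at least 10 counts in a sample, all tested with edgeR, 4177 were higher with lapatinib (30.5%) and 4007 were lower (29.2%) at an adjusted p (Benjamini-Hochberg over all genes tested) under 0.05. A log2 fold change of 1 is a doubling, and its standard error (SE) is that of the fit to 3 samples a group. Values given beside a gene without another unit are log2 fold changes. A change of at least 2-fold was called up for 910 genes (6.64%) and down for 978 (7.13%). The median log2 fold change over all genes tested was 0.03, and the middle 50% of genes lay between -0.38 and 0.42. These shares are the background for every list that follows. The DMSO and lapatinib samples did not overlap for 66.3% of the genes tested.

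**Figure D1:**
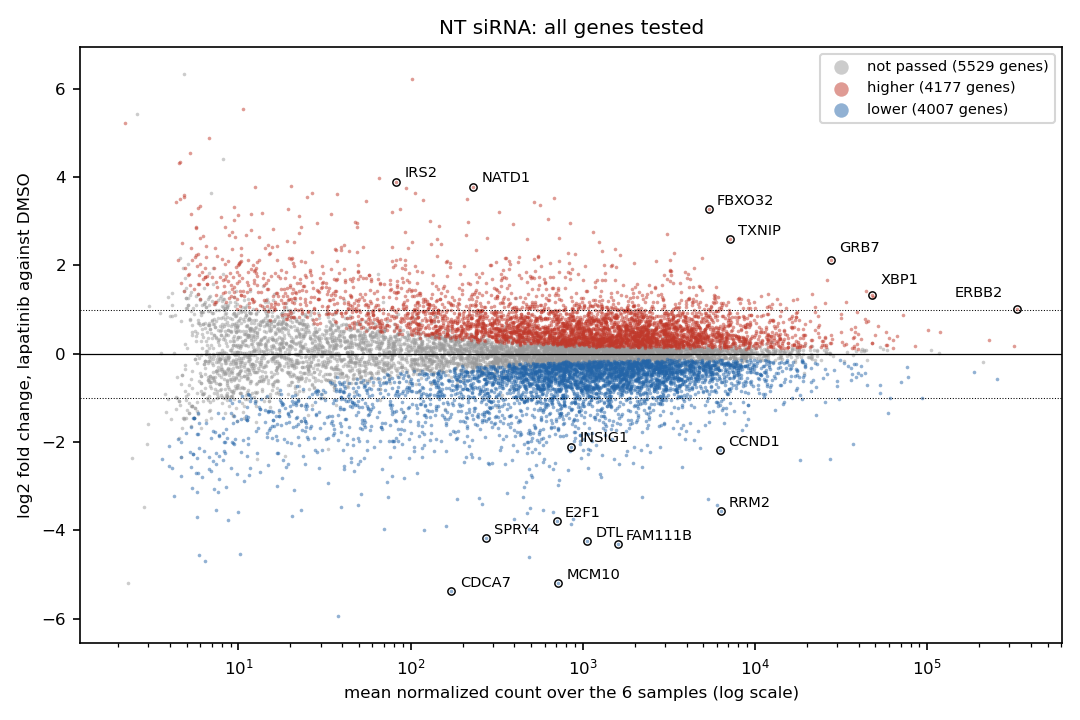
Log2 fold change of lapatinib against DMSO with NT siRNA (vertical axis) against the mean normalized count over the 6 samples (horizontal axis, log scale), 1 point per gene tested. Red points are the 4177 genes called higher, blue points the 4007 called lower and grey points those that did not pass, and the dotted lines mark 2-fold; the named falls of DNA replication and E2F genes lie below -3 while ERBB2, the named gene with the highest count, lies at 1.01.

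In total, 36 gene lists with 1074 distinct genes matched to the files were read against this background, and 979 of these genes had enough counts for the test. DNA replication, mitosis, homologous recombination, ERK output, G1 and S phase entry, glycolysis, nucleolar ribosome biogenesis, cholesterol, chaperone and proteasome genes lay mostly below zero. The ERBB receptors, FOXO targets, luminal transcription factors, luminal secretory products, interferon-stimulated genes and lysosome genes lay mostly above zero. Several lists were split, with members called in both directions and a median near zero. With 30.5% of all genes called higher and 29.2% lower, such a split alone does not set a list apart.

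**Figure D2:**
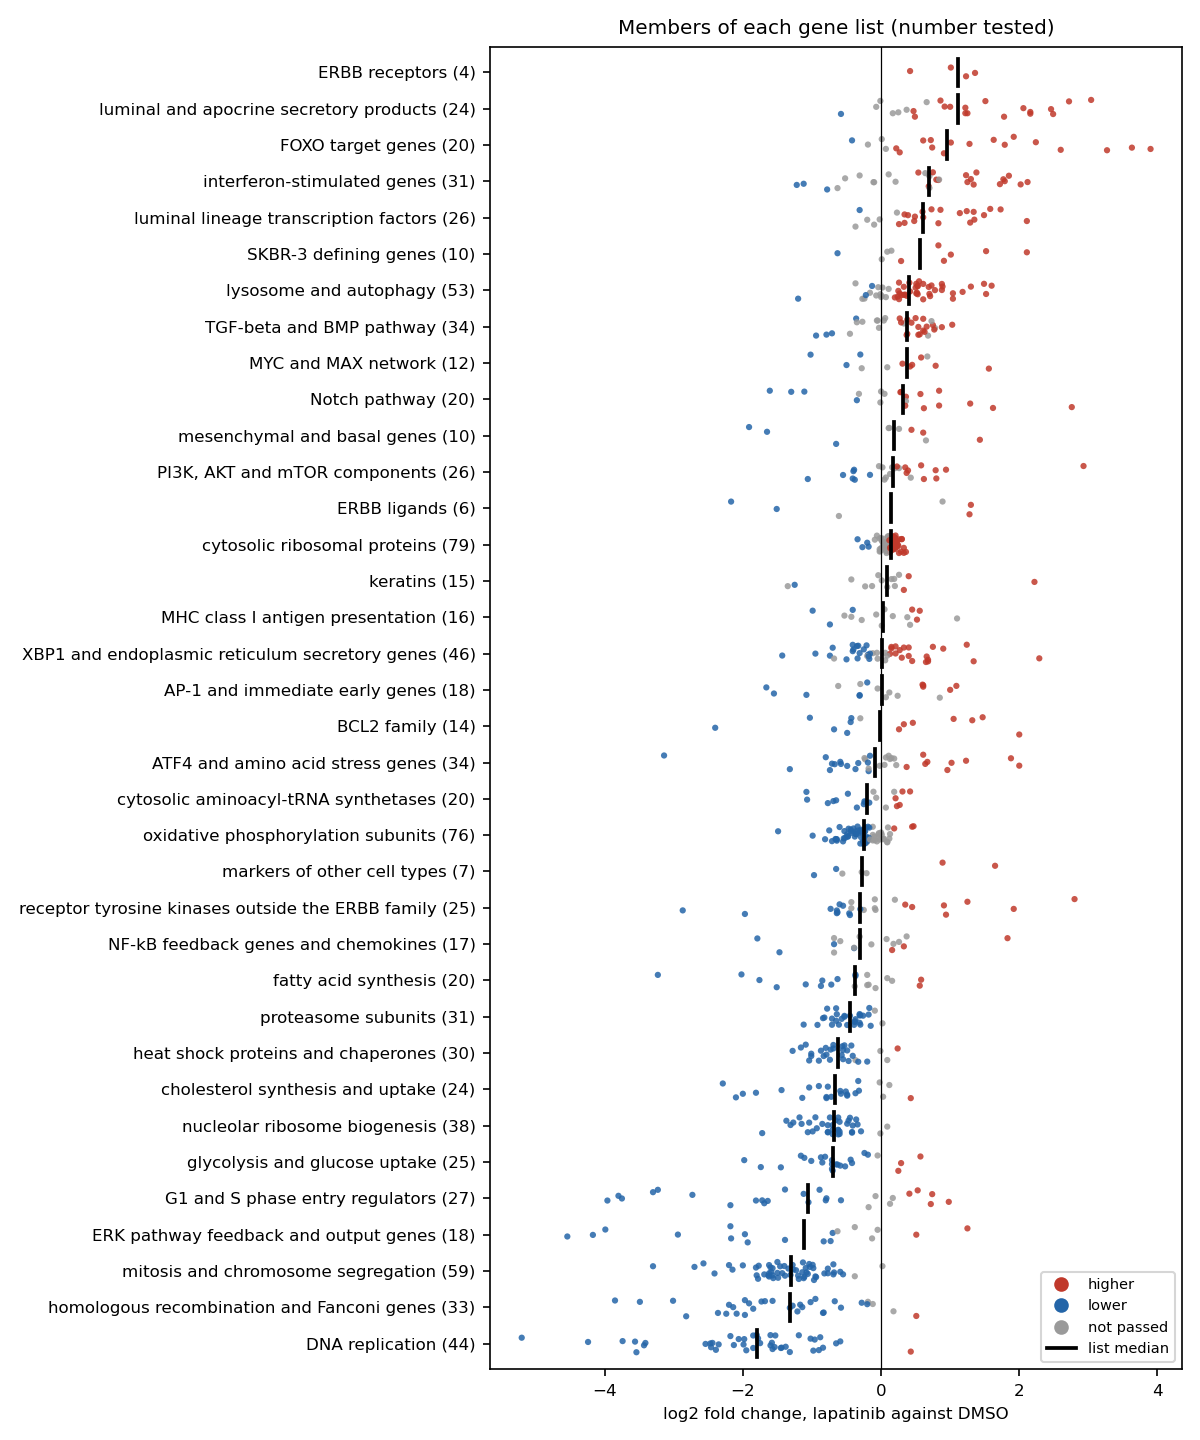
Log2 fold change of lapatinib against DMSO (horizontal axis) for each tested member of the 36 lists (vertical axis, number tested in brackets), ordered by list median. Red points were called higher, blue lower and grey did not pass, and the black bar is the list median, which ran from -1.79 for DNA replication to 1.12 for the ERBB receptors.

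All 4 ERBB receptors were higher with lapatinib, and 3 of them by at least 2-fold. ERBB2 was at 210900, 249100 and 211200 normalized counts in the DMSO samples and 442600, 428500 and 458300 in the lapatinib samples. The mean rose 1.98-fold (log2 fold change 1.01 ± 0.07 (SE), adjusted p = 1.33e-05). At 3073 TPM in DMSO, ERBB2 was already far above ERBB3 at 169 TPM, EGFR at 71 TPM and ERBB4 at 0.497 TPM. ERBB3, the partner through which HER2 reaches PI3K, had 10170, 11440 and 10250 normalized counts in DMSO and 23110, 26460 and 24180 in lapatinib (log2 fold change 1.23 ± 0.07 (SE), adjusted p = 4.98e-06). ERBB4 went from 74.8, 57.5 and 94.9 to 210.4, 157 and 208, a log2 fold change of 1.36 ± 0.21 (SE) with an adjusted p of 0.000611. EGFR, the other lapatinib target, had the least change, from 6666, 5634 and 5949 to 8705, 7927 and 7390 (log2 fold change 0.42 ± 0.08 (SE), adjusted p = 0.00204). The groups did not overlap for any of the 4 receptors, nor for 66.3% of all genes tested. GRB7, an adaptor protein gene that neighbours ERBB2 and is commonly amplified with it, had 10780, 10660 and 9950 normalized counts in DMSO and 40860, 49950 and 42990 in lapatinib. Its mean rose 4.26-fold (log2 fold change 2.11 ± 0.08 (SE), adjusted p = 1.47e-06). Other neighbours of ERBB2 were not read as a group, and GRB7 does not stand for them.

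The ligands of these receptors changed in both directions. Of 11 ligand genes 6 could be tested, with 2 higher and 2 lower (1 lower without replicate 2). That is 33.3% each way, against 30.5% and 29.2% of all genes. HBEGF, a ligand of EGFR and ERBB4, had 57.1, 77.3 and 66.1 normalized counts in DMSO and 13.1, 10.9 and 19.5 in lapatinib (log2 fold change -2.17 ± 0.27 (SE), adjusted p = 0.000209), and EPGN, another EGFR ligand of low count, had a log2 fold change of -1.51 ± 0.42 (SE). EGF itself went the other way, from 483, 522 and 502 to 1128, 1205 and 1273 (log2 fold change 1.28 ± 0.07 (SE), adjusted p = 5.51e-06). NRG2, a neuregulin, had 30.5, 92.2 and 40.3 in DMSO and 116, 177 and 103 in lapatinib, where replicate 2 was the highest sample of each group. AREG and BTC did not pass, with log2 fold changes of -0.61 and 0.89, and BTC passed without lapatinib replicate 3 (1.20, adjusted p = 0.00536). TGFA, EREG, NRG1, NRG3 and NRG4 had at most 5 counts in a sample.

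Genes that report ERK activity were mostly lower. Of 18 tested, 12 were lower, 9 of them by at least 2-fold, and 2 were higher, with a median log2 fold change of -1.11. SPRY4, a Sprouty inhibitor of receptor signalling, had 433, 656 and 468 normalized counts in DMSO and 10.7, 48.7 and 23.6 in lapatinib (log2 fold change -4.17 ± 0.37 (SE), adjusted p = 3.19e-05). ETV4, an ETS factor, had 167, 339 and 167 in DMSO and 16.6, 15.9 and 9.23 in lapatinib, and ETV1, another member of that family, 62, 41.6 and 71.9 in DMSO and 5.94, 7.95 and 8.21 in lapatinib (log2 fold changes -3.99 ± 0.39 (SE) and -2.94 ± 0.32 (SE)). In replicate 2 both SPRY4 and ETV4 were well above the other DMSO samples, yet every lapatinib sample lay below every DMSO sample. The groups had no overlap for 66.3% of all genes tested. FOSL1, an AP-1 subunit, was low throughout, at 18.7, 21.8 and 18.2 in DMSO and 1.19, 0 and 1.03 in lapatinib, so that its change rests on a few counts. CCND1, which encodes cyclin D1, had 8956, 12080 and 9660 in DMSO and 2241, 2673 and 1784 in lapatinib (log2 fold change -2.18 ± 0.16 (SE), adjusted p = 1.42e-05). SPRY2, SPRED1, PHLDA1 and EPHA2 were lower too, with log2 fold changes of -1.93, -1.39, -2.17 and -1.97. The list was not uniform. MAFF, a small MAF factor, was higher (log2 fold change 1.25 ± 0.21 (SE)) and so was SPRY1 (0.51 ± 0.14 (SE)). DUSP6, a phosphatase that acts on ERK, had a log2 fold change of -0.63 that did not pass the test (adjusted p = 0.186).

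AP-1 and other immediate early genes were split, with 5 of 18 higher, 6 lower and a median of 0.01. These shares, 27.8% and 33.3%, are near the 30.5% and 29.2% of all genes. Among those lower were the factors KLF2 (-1.66 ± 0.23 (SE)), NR4A3 (-1.55 ± 0.21 (SE)) and EGR1 (-1.08 ± 0.23 (SE)). FOSL2 and JUND, AP-1 subunits, were higher, from 1299, 1308 and 1187 to 2642, 2765 and 2523 normalized counts and from 2272, 2496 and 1993 to 4479, 5057 and 3835. FOS did not pass (-0.62, adjusted p = 0.171), though it did with the replicate number as a block (adjusted p = 0.0308).

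FOXO target genes rose. Of 20 tested, 16 were higher, 10 by at least 2-fold, and SOD2 alone was lower (-0.42 ± 0.06 (SE)), with a list median of 0.96. IRS2, the insulin receptor substrate, had 6.89, 11.9 and 12.5 normalized counts in DMSO and 162, 163 and 139.5 in lapatinib, a 14.8-fold higher mean (log2 fold change 3.90 ± 0.23 (SE), adjusted p = 5.77e-06). FBXO32, a ubiquitin ligase subunit known from muscle wasting, had 1007, 1169 and 892 in DMSO and 8885, 11160 and 9178 in lapatinib, a 9.53-fold higher mean (log2 fold change 3.27 ± 0.12 (SE), adjusted p = 1.57e-06). TXNIP, which binds thioredoxin and limits glucose uptake, had 1904, 2374 and 1861 in DMSO and 11950, 12160 and 12670 in lapatinib (5.99-fold, adjusted p = 1.57e-06). TNFSF10, the death ligand TRAIL, had 14.8, 19.8 and 13.4 in DMSO and 147, 332 and 109 in lapatinib, where replicate 2 was more than 2-fold above the other lapatinib samples (log2 fold change 3.63 ± 0.47 (SE)). INSR, the insulin receptor, PIK3IP1, an inhibitor of PI3K, and CCNG2 and BCL6 were higher as well, with log2 fold changes of 1.92, 2.24, 1.79 and 1.63. The other 3 did not pass. Without replicate 2 of both groups 2 members were lower.

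Among PI3K, AKT and mTOR components 10 of 26 were higher and 7 lower, mostly by less than 2-fold. These are 38.5% and 26.9%, against 30.5% and 29.2% of all genes. INPP5D, the lipid phosphatase SHIP1, was the 1 member higher by at least 2-fold, from 84.7, 94.2 and 97.8 to 649, 616 and 819.6 normalized counts (log2 fold change 2.93 ± 0.14 (SE), adjusted p = 2.78e-06). TSC1, a brake on mTOR, RICTOR, a subunit of mTOR complex 2, and DEPTOR, an mTOR inhibitor, were higher by 0.94, 0.80 and 0.79 on the log2 scale. AKT1 was lower, from 9758, 9489 and 9709 to 6133, 6649 and 6666 (log2 fold change -0.55 ± 0.05 (SE), adjusted p = 2.87e-05), and SGK1, a kinase related to AKT, was the 1 member lower by at least 2-fold, at few counts (-1.06 ± 0.34 (SE)). PIK3CA was higher (0.58 ± 0.05 (SE)).

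Of 25 other receptor tyrosine kinases tested, 11 were lower (44%, against 29.2% of all genes) and 7 higher (28%, against 30.5%). Among those that rose were INSR, from 352, 416 and 336 to 1208, 1767 and 1134 normalized counts, MERTK (1.25 ± 0.26 (SE)), DDR1 (0.94 ± 0.06 (SE)) and IGF1R (0.91 ± 0.10 (SE)). KDR, the main VEGF receptor, had 0, 2.97 and 5.75 in DMSO and 15.4, 15.9 and 30.8 in lapatinib. EPHA2, an ephrin receptor, fell from 1394, 1688 and 1526 to 333, 480.0 and 340.5 (log2 fold change -1.97 ± 0.15 (SE), adjusted p = 1.36e-05). RET had 17.7, 16.9 and 23 in DMSO and 1.19, 3.98 and 2.05 in lapatinib. MET was higher by 0.45 and FGFR4 lower (-0.64 ± 0.21 (SE)). AXL, PDGFRA, FLT3, ALK and 15 other kinases of the list had too few counts to test.

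Regulators of entry into S phase were mostly lower. Of 27 tested, 18 were lower, 14 of them by at least 2-fold, with a median of -1.05. E2F1, which turns on the genes of DNA synthesis, had 1453, 1091 and 1402 normalized counts in DMSO and 90.3, 81.5 and 108 in lapatinib (log2 fold change -3.80 ± 0.15 (SE), adjusted p = 1.74e-06). E2F2 had 1076, 638 and 1036 in DMSO and 58.2, 48.7 and 66.7 in lapatinib, and E2F7, a repressor that E2F1 itself induces, 840.1, 522 and 854 in DMSO and 41.6, 68.6 and 50.3 in lapatinib (log2 fold changes -3.96 ± 0.23 (SE) and -3.75 ± 0.24 (SE)). CCNE2, a cyclin E, was lower, at -3.30, and CDC25A, CDK2 and CCNE1 at -2.73, -1.72 and -1.69. Of the 27, 5 were higher (3 without lapatinib replicate 1). CDKN1B, which encodes the inhibitor p27, had 1839, 1530 and 1841 in DMSO and 2812, 2938 and 2802 in lapatinib (log2 fold change 0.74 ± 0.07 (SE), adjusted p = 6.09e-05). RB1, RBL2, CDKN2B and CDKN1C were the other 4 that rose, by 0.41, 0.72, 0.53 and 0.98. CDKN1A, which encodes p21, did not pass (0.17, adjusted p = 0.493).

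Many cell cycle genes are known to be controlled through short promoter elements. Genes of S phase often hold an E2F site, and genes of mitosis often hold a cell cycle homology region (CHR) together with a CCAAT box. Promoters from RefSeq (GRCh38.p14), each from 250 bases before to 50 after a gene start, were searched on both strands for the letters TTTGGCGC, TTTCGCGC, TTTCCCGC or TTTGCCGC (E2F), TTTGAA (CHR) and CCAAT. A gene with several starts counted once if any held the letters. Of 27305 genes in the promoter table, 3.99% held the E2F letters, 18.2% the CHR letters and 39.7% CCAAT. Of 44 DNA replication genes tested, 37 had a promoter there, and 56.8% held the E2F letters, 5.41% the CHR letters and 62.2% CCAAT. Of 59 mitosis genes 50 had one, and 6% held the E2F letters, 72% the CHR letters and 78% CCAAT. The last share was 88.9% of 18 cholesterol genes and 38.7% of 31 nucleolar genes, which mostly fell. For 17 FOXO targets, which mostly rose, it was 52.9%. High shares of this box are therefore not particular to mitosis. How often the box and the CHR letters occurred together was not counted. These letters describe the sequence only. MCM10 and RRM2, both far lower with lapatinib, held none of these E2F letters. IRS2, INSR and GATA3, which were higher with lapatinib, did hold them. The shares for all genes are those of the whole promoter table, which also holds genes that were not tested here.

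To show the elements, the 250 bases before the start are given for E2F1 (chr20:33686386-33686635, minus strand), DTL (chr1:212035498-212035747, plus strand) and GINS2 (chr16:85688955-85689204, minus strand), with the E2F letters in capitals on either strand, and for PLK1 (chr16:23678639-23678888, plus strand) and CCNB2 (chr15:59104896-59105145, plus strand), with the CHR and CCAAT letters in capitals. These genes were picked as examples after their values were seen, and the capitals of different motifs do not overlap in them.
E2F1: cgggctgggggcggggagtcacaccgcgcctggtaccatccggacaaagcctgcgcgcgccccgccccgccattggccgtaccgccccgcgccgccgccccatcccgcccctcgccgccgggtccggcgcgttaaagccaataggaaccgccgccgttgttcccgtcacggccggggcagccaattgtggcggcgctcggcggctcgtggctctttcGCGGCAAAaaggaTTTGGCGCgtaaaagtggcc
DTL: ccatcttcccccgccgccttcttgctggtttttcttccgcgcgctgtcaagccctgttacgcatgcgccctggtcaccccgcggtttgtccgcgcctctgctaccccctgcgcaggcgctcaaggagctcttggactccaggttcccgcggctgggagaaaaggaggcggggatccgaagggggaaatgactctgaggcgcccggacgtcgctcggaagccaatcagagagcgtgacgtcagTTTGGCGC
GINS2: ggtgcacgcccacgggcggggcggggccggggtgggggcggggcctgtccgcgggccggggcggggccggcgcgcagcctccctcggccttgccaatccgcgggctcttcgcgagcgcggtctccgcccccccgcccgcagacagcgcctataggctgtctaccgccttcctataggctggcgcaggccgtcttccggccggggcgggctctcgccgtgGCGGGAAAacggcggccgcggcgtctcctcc
PLK1: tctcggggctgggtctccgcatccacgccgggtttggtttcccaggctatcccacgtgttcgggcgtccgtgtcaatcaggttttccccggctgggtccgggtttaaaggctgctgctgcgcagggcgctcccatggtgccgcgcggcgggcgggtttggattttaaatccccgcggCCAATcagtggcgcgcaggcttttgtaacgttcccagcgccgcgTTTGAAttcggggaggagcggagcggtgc
CCNB2: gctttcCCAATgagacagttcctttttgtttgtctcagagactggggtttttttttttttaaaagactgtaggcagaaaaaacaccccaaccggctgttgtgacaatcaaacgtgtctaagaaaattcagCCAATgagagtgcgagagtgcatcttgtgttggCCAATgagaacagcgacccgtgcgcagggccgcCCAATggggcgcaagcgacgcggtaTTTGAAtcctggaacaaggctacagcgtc
The E2F letters begin 20 and 33 bases before the E2F1 start, 8 bases before that of DTL and 31 before that of GINS2. In PLK1 and CCNB2 the CHR letters both begin 29 bases before the start, with CCAAT beginning 73 bases before it in PLK1 and 54, 87, 120 and 244 bases before it in CCNB2.

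DNA replication had the lowest median of the 36 lists, -1.79. Of 44 tested, 43 were lower, 36 by at least 2-fold, against 7.13% of all genes. MCM10, which helps to start the replication helicase, had 1601, 1083 and 1518 normalized counts in DMSO and 30.9, 33.8 and 47.2 in lapatinib (log2 fold change -5.20 ± 0.21 (SE), adjusted p = 1.78e-06). DTL, which marks a replication licensing factor for destruction, had 2242, 1636 and 2161 in DMSO and 112, 98.4 and 106 in lapatinib (log2 fold change -4.24 ± 0.14 (SE), adjusted p = 1.29e-06). RRM2, the regulated subunit of ribonucleotide reductase, had 13430, 8483 and 13050 in DMSO and 796, 1195 and 911 in lapatinib, and UHRF1, which keeps DNA methylation through replication, 1860, 1422 and 1627 in DMSO and 125, 121 and 116 in lapatinib. GINS2, CDC6 and CDC45 were lower, at -3.41, -3.43 and -3.54. The helicase subunits MCM2 to MCM7 were all lower, from -2.47 for MCM2 to -0.90 for MCM4, and PCNA, the sliding clamp, at -1.95. CHAF1B, a histone chaperone subunit, was the only member that rose, from 1496, 1278 and 1451 to 1726, 1993 and 1877 (0.43 ± 0.08 (SE)), while its partner CHAF1A was lower (-2.35 ± 0.11 (SE)).

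Mitotic genes fell with a smaller median, -1.31. Of 59 tested, 57 were lower, 44 by at least 2-fold, and the other 2 did not pass. MYBL2, which drives genes of the later cell cycle, had 10850, 7862 and 10150 normalized counts in DMSO and 768, 1268 and 853 in lapatinib (log2 fold change -3.30 ± 0.19 (SE), adjusted p = 5.61e-06). CDK1, the mitotic kinase, had 7213, 5048 and 7232 in DMSO and 883, 1349 and 983 in lapatinib (log2 fold change -2.57 ± 0.18 (SE), adjusted p = 1.16e-05). MKI67, the proliferation marker Ki-67, had 13970, 11160 and 14780 in DMSO and 2830, 6392 and 3707 in lapatinib (log2 fold change -1.60 ± 0.26 (SE), adjusted p = 0.000889). Replicate 2 had the lowest DMSO value and the highest lapatinib value for all 3 of these genes. The median difference over the list between same-numbered samples was -1.78, -0.77 and -1.55 in replicates 1 to 3, so the fall in replicate 2 was the smallest of the 3. PLK1, CCNB1 and CCNB2 were lower, at -1.28, -1.04 and -0.98. The kinetochore genes SPC24 and SPC25 were lower, at -2.70 and -2.41.

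Homologous recombination and Fanconi genes, which repair broken or blocked forks, were lower for 29 of 33 and higher for 1 (2 without replicate 2), with a median of -1.32. EXO1, a DNA end resection nuclease, had 1901, 1090 and 1821 normalized counts in DMSO and 95.1, 129 and 102 in lapatinib (log2 fold change -3.85 ± 0.23 (SE), adjusted p = 6.32e-06). RAD54L, BLM and FANCB were lower, at -3.49, -3.01 and -2.82, and BRCA2 and BRCA1 at -2.14 and -1.68. ATM, a damage sensing kinase, rose from 1262, 1199 and 1300 to 1721, 1871 and 1692 (0.51 ± 0.06 (SE)), and ATR, its relative, was lower, at -0.20.

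**Figure D3:**
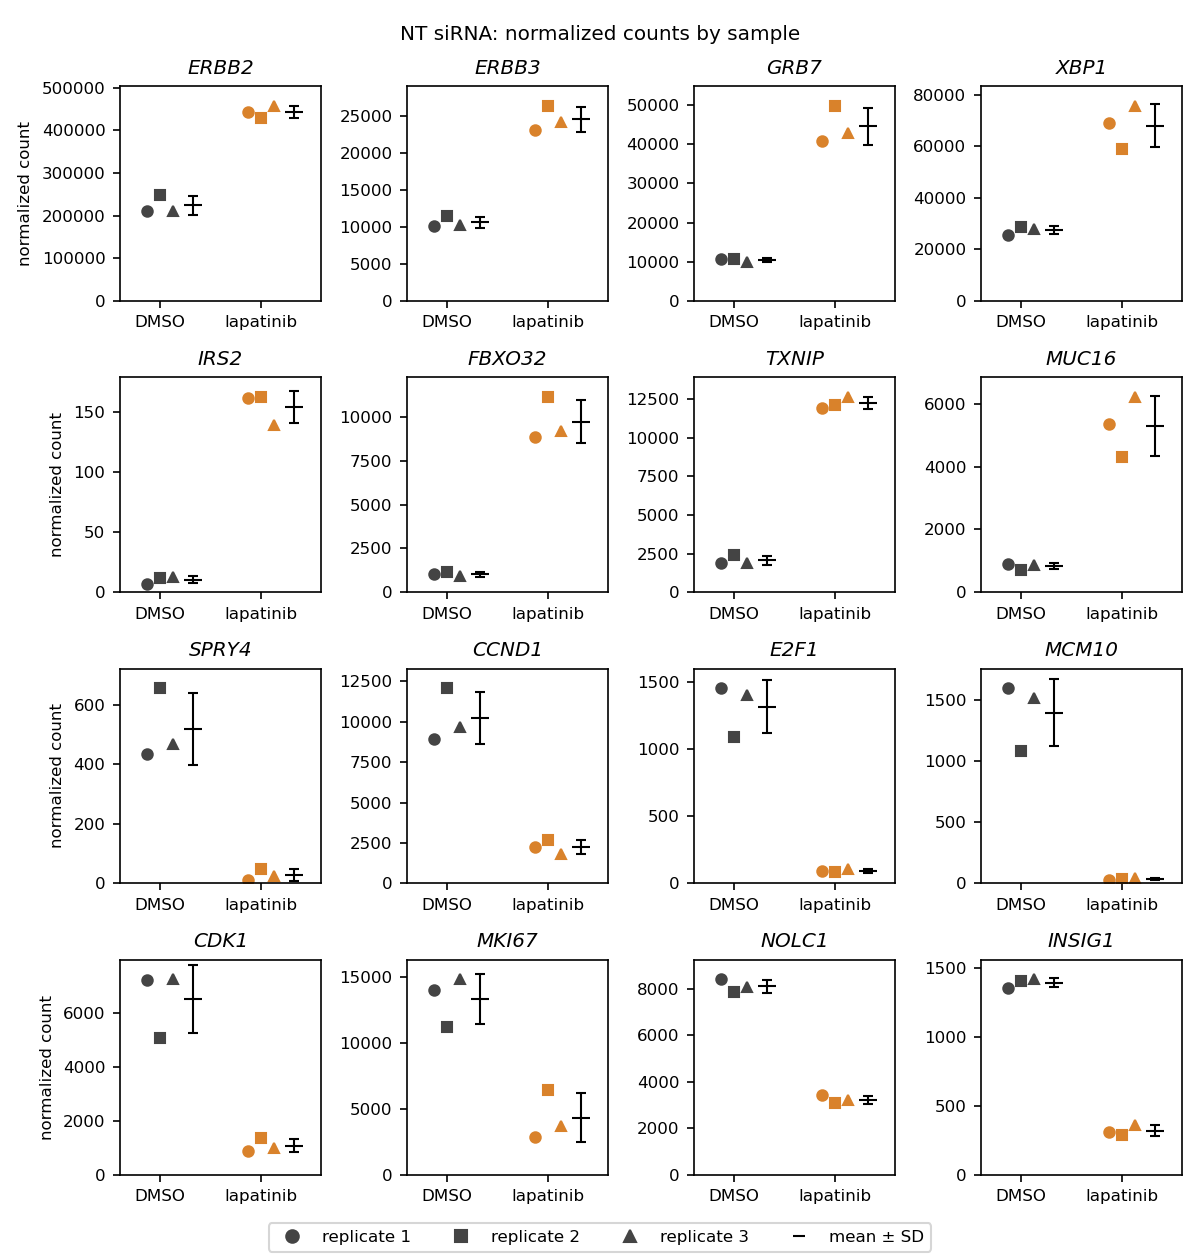
Normalized counts (vertical axes, each from 0) of 16 genes in the 3 DMSO and 3 lapatinib samples with NT siRNA. Marker shape gives the replicate and the black bar the mean ± SD (n = 3). The 16 genes were picked as examples, the first 8 higher and the last 8 lower with lapatinib. The groups do not overlap in any of them, nor in 66.3% of all genes tested.

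The MYC and MAX network changed in both directions. MYC had 6072, 6274 and 6136 normalized counts in DMSO and 4215, 4786 and 3912 in lapatinib, a small fall (log2 fold change -0.50 ± 0.07 (SE), adjusted p = 0.0005). MXI1 and MXD1, which compete with MYC for MAX, rose, MXI1 from 292, 303 and 257 to 754, 920.2 and 802 (1.56 ± 0.11 (SE)) and MXD1 by 0.79. MXD4 and MAX were higher too (0.58 and 0.42), and MXD3 was lower (-1.02 ± 0.16 (SE)). In all, 6 of 12 tested were higher (50%, against 30.5% of all genes) and 3 lower (25%, against 29.2%).

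Nucleolar ribosome biogenesis genes and ribosomal protein genes went different ways. Of 38 nucleolar genes 36 were lower, 8 by at least 2-fold, and the median was -0.68. NOLC1, a nucleolar scaffold, had 8407, 7848 and 8076 normalized counts in DMSO and 3411, 3084 and 3193 in lapatinib (log2 fold change -1.31 ± 0.06 (SE), adjusted p = 2.1e-06). LYAR, BOP1 and NOP16, which act in ribosome assembly, were lower, at -1.72, -1.37 and -1.27. NPM1, an abundant nucleolar protein, did not pass (-0.01). Of 79 cytosolic ribosomal proteins 44 were higher and 4 lower, each by less than 2-fold, with a median of 0.14. The median over all genes was 0.03. Their summed level was 165500 to 167800 TPM in DMSO and 176400 to 180400 in lapatinib. Scaled counts and TPM are both relative to the other genes of a sample, and a change in amount per cell was not tested. RPLP1 rose from 8548, 8248 and 8229 to 10630, 10710 and 10320 (0.36 ± 0.04 (SE)) and RPS26 fell from 5867, 5264 and 5805 to 4385, 4213 and 4535 (-0.34 ± 0.06 (SE)). The count of ribosomal proteins called higher was 25 without replicate 3 of DMSO, and reads of these genes can be shared with their many pseudogenes.

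Lipid genes controlled by the SREBP factors were mostly lower. Of 24 cholesterol genes 20 were lower and TM7SF2, a sterol reductase, was higher (0.43 ± 0.09 (SE)), with a median of -0.66. INSIG1, which retains SREBP in the endoplasmic reticulum, had 1355, 1404 and 1416 normalized counts in DMSO and 307, 289 and 361 in lapatinib (log2 fold change -2.10 ± 0.09 (SE), adjusted p = 2.28e-06). DHCR7, ACAT2 and EBP were lower, at -1.81, -2.0 and -1.44, and HMGCS1, at the head of the pathway, at -0.58. The other 3 did not pass. Of 20 fatty acid genes 11 were lower and 2 higher. The count higher was 4 without replicate 2, and 1 with other scalings or filters on low counts or without DMSO replicate 1, DMSO replicate 3 or lapatinib replicate 3. ELOVL6, an elongase, had 2318, 1972 and 2385 in DMSO and 877, 596 and 831 in lapatinib (-1.51 ± 0.14 (SE)), and SCD and ACLY were lower, at -1.09 and -0.72. FASN, the fatty acid synthase, did not pass (-0.18). FADS2, a desaturase, had 13.8, 11.9 and 19.2 in DMSO and 3.57, 4.97 and 2.05 in lapatinib, and FADS1, at 1.97, 7.93 and 13.4 in DMSO and 1.19, 0.994 and 0 in lapatinib, had hardly any counts.

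Glycolysis genes were lower for 21 of 25, with a median of -0.70. The fall ran along the pathway, from PFKP (-1.16 ± 0.07 (SE)) through GAPDH (-0.42 ± 0.08 (SE)) and PGAM1 (-0.85 ± 0.10 (SE)) to PKM (-1.01 ± 0.07 (SE)) and LDHA (-0.71 ± 0.07 (SE)). PFKP had 5817, 6335 and 5483 normalized counts in DMSO and 2632, 2738 and 2410 in lapatinib. SLC16A1, a lactate carrier, and SLC2A3, the glucose carrier GLUT3, were lower, at -1.98 and -1.45. SLC2A1, the main glucose carrier GLUT1, HK2 and PFKFB3 were the 3 that rose, by 0.29, 0.25 and 0.57. The summed level of the list was 24950 to 27050 TPM in DMSO and 16880 to 18230 in lapatinib. Oxidative phosphorylation subunits fell less, with 50 of 76 lower, 3 higher (6 without replicate 2 of both groups or of lapatinib alone) and a median of -0.25. ATP5MC1 was the only one lower by at least 2-fold, from 1434, 1143 and 1382 to 523, 373 and 491 (-1.49 ± 0.14 (SE)). ATP5MC2, another gene of the same ATP synthase ring subunit, rose from 1821, 1556 and 1671 to 2192, 2272 and 2333 (0.45 ± 0.07 (SE)).

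Chaperones and the proteasome were lower. Of 30 heat shock and chaperone genes 26 were lower, with a median of -0.63. HSPH1, a nucleotide exchange factor, had 10420, 7234 and 9886 normalized counts in DMSO and 4391, 2702 and 4089 in lapatinib (-1.28 ± 0.19 (SE)), and STIP1, CCT5, HSPA8 and HSP90AA1 were lower, at -1.16, -1.09, -1.01 and -0.90. HSF1, the master factor of this response, was the only member higher (0.24 ± 0.06 (SE)). Without replicate 2 there were 2, and without DMSO replicate 3 HSF1 did not pass. Of 31 proteasome subunits 29 were lower, with a median of -0.45. PSMD14, the deubiquitinase of the lid, fell from 3174, 2774 and 3101 to 1468, 1194 and 1427 (-1.12 ± 0.09 (SE)). The other 2 did not pass.

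Lysosome and autophagy genes were higher for 38 of 53, 7 of them by at least 2-fold, and lower for 3. The median was 0.41. NBR1, an autophagy receptor, had 2097, 2256 and 2100 normalized counts in DMSO and 6099, 6011 and 6065 in lapatinib (log2 fold change 1.52 ± 0.05 (SE), adjusted p = 1.29e-06). GABARAPL1 and MAP1LC3B, which coat autophagosomes, were higher by 1.49 and 1.04, ULK1, which starts autophagy, by 1.04, and SQSTM1 by 0.69. The cathepsins CTSD, CTSB and CTSF were higher by 0.53, 0.53 and 1.30. GLA, a lysosomal galactosidase, fell from 1037, 809 and 960.4 to 422, 369.7 and 415 (-1.20 ± 0.11 (SE)), and UVRAG was lower as well (-0.22). The count of lower members was 6 with the block, 7 without replicate 2 and 1 without DMSO replicate 1, DMSO replicate 3 or lapatinib replicate 1.

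The ATF4 list was split. Of 34 tested 9 were higher (26.5%, against 30.5% of all genes) and 14 lower (41.2%, against 29.2%). CHAC1, which degrades glutathione, had 95.5, 149.7 and 108 normalized counts in DMSO and 346, 735 and 316 in lapatinib, where replicate 2 was far above the others (2.0 ± 0.34 (SE)). NUPR1, DDIT3 and ATF4 itself were higher by 1.88, 0.96 and 0.61. The serine synthesis genes PSAT1 and PHGDH were lower, PSAT1 from 3088, 2516 and 3108 to 1158, 1298 and 992 (-1.32 ± 0.11 (SE)) and PHGDH at -0.80. ASNS and TRIB3 did not pass (0.11 and 0.22), and TRIB3 did with the block (adjusted p = 0.00421). STC2 had 9.85, 14.9 and 6.71 in DMSO and 0, 2.98 and 0 in lapatinib. Of 20 cytosolic aminoacyl-tRNA synthetases 11 were lower and 5 higher, with VARS1 and FARSB lower, at -1.08 and -1.07 and CARS1 higher by 0.42.

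Genes of the endoplasmic reticulum went both ways. Of 46 tested 20 were higher (43.5%, against 30.5% of all genes) and 18 lower (39.1%, against 29.2%), with a median of 0.01. XBP1, the factor that builds secretory capacity, had 25520, 28530 and 27830 normalized counts in DMSO and 69160, 59060 and 75790 in lapatinib (log2 fold change 1.34 ± 0.09 (SE), adjusted p = 1.05e-05). CREB3L1 and CREB3L4, related membrane-bound factors, were higher, CREB3L1 from 178, 393 and 271 to 1222, 1155 and 1682 (2.29 ± 0.26 (SE)) and CREB3L4 by 0.90. The degradation genes HERPUD1, SEL1L and EDEM1 were higher by 1.24, 0.66 and 0.33. The chaperone genes SDF2L1, CRELD2, DNAJB11 and HYOU1 were lower, at -1.43, -0.95, -0.74 and -0.70. SDF2L1 had 749.5, 785 and 751 in DMSO and 288, 275 and 275 in lapatinib. HSPA5, the chaperone BiP, did not pass (-0.12), but did with the block (adjusted p = 0.0173).

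The BCL2 family moved in both directions, with 7 of 14 higher (50%, against 30.5% of all genes) and 6 lower (42.9%, against 29.2%). Of the BH3-only killers, BMF, BIK, BBC3 and BCL2L11 were higher and BID and BAD lower. BMF had 577, 532 and 509 normalized counts in DMSO and 1898, 2586 and 1900 in lapatinib (log2 fold change 2.0 ± 0.13 (SE), adjusted p = 7.54e-06), and BCL2L11, which encodes BIM, 2361, 2076 and 2674 in DMSO and 4941, 4072 and 5476 in lapatinib (log2 fold change 1.05 ± 0.12 (SE), adjusted p = 0.000132). BIK and BBC3, which encodes PUMA, were higher by 1.47 and 1.32. The survival genes BCL2L1 and MCL1 were higher by 0.46 and 0.33, and BCL2 fell from 29.6, 36.7 and 25.9 to 3.57, 6.96 and 6.15 (-2.40 ± 0.34 (SE)). BID fell from 963, 954 and 948 to 499, 426 and 456 (-1.03 ± 0.08 (SE)), and the effectors BAX and BAK1 were lower, at -0.44 and -0.49. PMAIP1, which encodes NOXA, did not pass (-0.30), but without replicate 2 of both groups it did (-0.73, adjusted p = 0.0332).

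Interferon-stimulated genes were higher for 16 of 31 tested, 11 by at least 2-fold, and lower for 3, with a median of 0.70. Summed over the list, the level did not rise, at 747.7 to 1002 TPM in DMSO and 792.1 to 939.6 in lapatinib. The groups did not overlap for 17 of the 31, while 66.3% of all genes tested had no overlap. OAS2, a sensor of double-stranded RNA, had 16.7, 42.6 and 18.2 normalized counts in DMSO and 88, 85.5 and 91.3 in lapatinib (1.79 ± 0.33 (SE)). IFIT2 had 1.97, 6.94 and 2.88 in DMSO and 19, 18.9 and 10.3 in lapatinib and IFIT3 0.985, 3.96 and 0.959 in DMSO and 8.32, 12.9 and 5.13 in lapatinib, so both were near the low end of what could be counted. IRF9, a subunit of the interferon-activated factor, and PARP14 were higher by 1.38 and 1.25. USP18 and OAS3 fell, USP18 from 809.6, 695 and 883 to 347, 311 and 349.8 (-1.22 ± 0.10 (SE)) and OAS3 at -1.12, and ISG15 was lower, at -0.78. The list median in DMSO replicate 2 was 0.444 above the DMSO mean on the log2 scale, against -0.114 and -0.235 in replicates 1 and 3. A further 9 genes of the list, among them IFI27 and RSAD2, had under 10 counts in every sample.

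Genes of MHC class I presentation gave 3 higher and 3 lower of 16, and 5 higher with the block and 6 without replicate 2. In the reported fit that is 18.8% each way, below the 30.5% and 29.2% of all genes. TAP2, a peptide carrier, fell from 1260, 1323 and 1086 to 619, 662 and 533 (-0.99 ± 0.11 (SE)) and ERAP1, a peptide trimmer, rose from 517, 586 and 479 to 818, 805 and 683 (0.56 ± 0.11 (SE)). HLA-B and B2M, the shared light chain, did not pass. With the block B2M had an adjusted p of 0.00431 at 0.17, and HLA genes share reads with one another. NF-kB feedback genes and chemokines gave 3 higher and 4 lower of 17, with 7 lower with the replicate number as a block and 1 higher without DMSO replicate 3. Their shares in the reported fit, 17.6% and 23.5%, were also below those of all genes. ICAM1, an adhesion molecule, had 121, 249 and 102 normalized counts in DMSO and 34.5, 53.7 and 45.1 in lapatinib (-1.79 ± 0.37 (SE)), and CCL2, a chemokine, 29.6, 30.7 and 35.5 in DMSO and 9.51, 12.9 and 11.3 in lapatinib (-1.47 ± 0.26 (SE)). TNFAIP3, a feedback inhibitor, did not pass (-0.39), with an adjusted p of 0.0221 with the block.

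Transcription factors of the luminal lineage rose. Of 26 tested 20 were higher, 9 by at least 2-fold, and LMO4 alone was lower (-0.31 ± 0.09 (SE)), with a median of 0.60. With the block 3 were lower, and without replicate 2 there were 2. KLF4 had 985, 1088 and 959 normalized counts in DMSO and 4088, 4611 and 4167 in lapatinib (log2 fold change 2.11 ± 0.07 (SE), adjusted p = 1.29e-06), and KLF5, its relative, 1023, 999 and 1116 in DMSO and 2876, 3033 and 3358 in lapatinib (log2 fold change 1.58 ± 0.07 (SE), adjusted p = 2.64e-06). The ETS factors EHF, ELF3 and ELF5 were higher by 1.49, 1.35 and 1.14. FOXA1 rose 1.49-fold (log2 fold change 0.60 ± 0.05 (SE), adjusted p = 2.14e-05) and GATA3 by 0.86 on the log2 scale. TOX3 had 148, 164 and 180.2 in DMSO and 447, 562 and 598 in lapatinib (1.73 ± 0.13 (SE)). ESR1 rose from 15.8, 12.9 and 15.3 to 27.3, 31.8 and 43.1 (1.24 ± 0.28 (SE)), a change at low counts.

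Secretory and apocrine products rose with them. Of 24 tested 17 were higher, 12 by at least 2-fold, with a median of 1.11. The mucin MUC16 had 901, 709.8 and 848 normalized counts in DMSO and 5374, 4318 and 6238 in lapatinib (log2 fold change 2.72 ± 0.14 (SE), adjusted p = 3.71e-06), and MUC15 128, 157 and 128 in DMSO and 1048, 1341 and 958 in lapatinib (log2 fold change 3.04 ± 0.15 (SE), adjusted p = 3.27e-06). MUC1, MUC20 and MUC4 were higher by 2.16, 2.06 and 1.78. PIP, the prolactin-induced protein of apocrine cells, had 33.5, 53.5 and 33.5 in DMSO and 193, 219.6 and 256 in lapatinib, and SCGB1D2 6.89, 20.8 and 10.5 in DMSO and 71.3, 79.5 and 57.4 in the lapatinib samples, with SCGB2A1 and SCGB2A2 higher by 1.51 and 1.22. TFF1, a trefoil peptide, was the only one lower (-0.58 ± 0.16 (SE)), and TFF3 did not pass (-0.01).

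Keratins mostly did not pass (11 of 15). KRT8, KRT18 and KRT19, the simple keratins of luminal cells, had log2 fold changes of 0.09, 0.15 and 0.01, and KRT18 passed with the block (adjusted p = 0.0203). KRT23 was higher at 132, 322 and 131 in DMSO and 656, 1407 and 629.8 in the lapatinib samples, with replicate 2 the highest sample of each group (2.22 ± 0.43 (SE)). KRT7 rose from 54850, 63620 and 55900 to 75110, 76580 and 75360 (0.40 ± 0.06 (SE)) and KRT13 fell (-1.25 ± 0.29 (SE)). With the block, and also without replicate 2, 5 keratins were higher and 3 lower, in place of 3 and 1. Of 20 mesenchymal and basal genes 10, among them VIM, CDH2, ZEB1 and TWIST1, had under 10 counts in every sample. SNAI1 fell from 127, 147 and 117 to 32.1, 34.8 and 34.9 (-1.91 ± 0.17 (SE)) and TAGLN, a contractile protein, rose from 101, 105 and 118 to 231, 359 and 273 (1.43 ± 0.17 (SE)). Among the genes listed for SKBR-3, CLDN3 and CLDN4 were higher by 0.91 and 0.83, and EPCAM fell from 8039, 7332 and 8068 to 4979, 5040 and 4858 (-0.63 ± 0.05 (SE)). CDH1, the E-cadherin gene that SKBR-3 cells are known to lack, was at 7.88, 4.96 and 1.92 in DMSO and 8.32, 18.9 and 14.4 in lapatinib.

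In the Notch pathway 11 of 20 were higher (55%, against 30.5% of all genes) and 4 lower (20%, against 29.2%). The ligand DLL4 had 20.7, 33.7 and 18.2 normalized counts in DMSO and 120.1, 227 and 138 in lapatinib (2.76 ± 0.32 (SE)), LFNG, which modifies the receptors, was higher by 1.29 and the coactivator MAML2 by 1.62. The target HES1 rose from 2165, 1786 and 2219 to 3615, 3394 and 3902 (0.84 ± 0.09 (SE)), while the targets NRARP and HES4 fell, NRARP from 368, 411 and 317 to 112, 124 and 118 (-1.61 ± 0.13 (SE)) and HES4 at -1.30 on the log2 scale. In the TGF-beta and BMP pathway 18 of 34 were higher and 4 lower (7 with the block or without replicate 2), all but BAMBI by less than 2-fold. The receptor genes BMPR2 and ACVR1 were higher by 0.88 and 0.75 and BMPR1B lower (-0.94 ± 0.12 (SE)). BAMBI, a decoy receptor, rose from 1307, 1066 and 1221 to 2503, 2116 and 2588 (1.03 ± 0.10 (SE)).

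**Figure D4:**
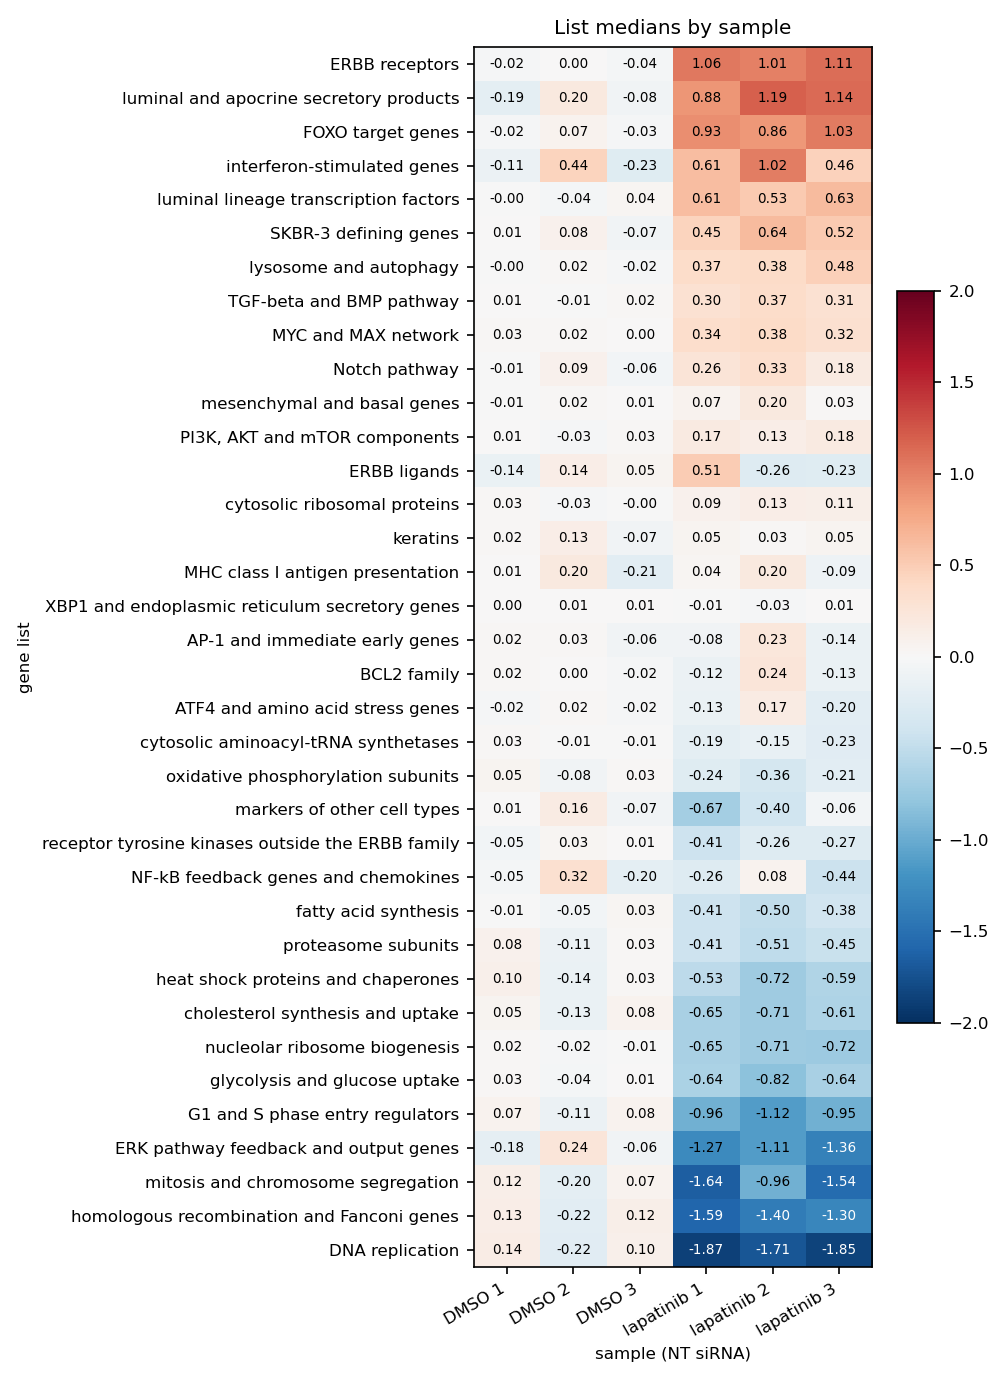
Median over the tested members of each list (rows) of the log2 difference from the DMSO mean, in each of the 6 samples with NT siRNA (columns). Red is above and blue below the DMSO mean; the lapatinib samples agree in sign for the lists at the top and bottom, and in mitosis replicate 2 (-0.956) is nearer to zero than replicates 1 (-1.642) and 3 (-1.536).

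The largest single changes among genes with a mean of at least 100 normalized counts and no overlap were partly outside these lists. NATD1, an acetyltransferase-like gene, had 32.5, 31.7 and 30.7 normalized counts in DMSO and 396, 513 and 382 in lapatinib (log2 fold change 3.78 ± 0.16 (SE), adjusted p = 2.11e-06). CREBRF, a regulator of the CREB3 factors, had 119, 76.3 and 107 in DMSO and 1035, 1118 and 933 in lapatinib, and DEPP1, a FOXO-regulated gene of the fasting response, 25.6, 29.7 and 30.7 in DMSO and 195, 272 and 219.5 in lapatinib. SEMA6C, RHBDL3, KLHL38 and TCP11L2 were higher by 3.51, 3.48, 3.43 and 3.22. PALM2AKAP2 had 170.4, 38.7 and 125 in DMSO and 1176, 1580 and 1001 in lapatinib; it is a read-through of neighbouring genes, so its reads may be split among them. TNFSF10, FBXO32 and MUC15 were also among the 12 largest rises. Of the 12 largest falls 8 were members of the lists above, namely MCM10, DTL, SPRY4, ETV4, E2F2, EXO1, E2F1 and E2F7. CDCA7, a MYC and E2F target, had 381, 263 and 366 in DMSO and 11.9, 5.96 and 6.15 in lapatinib (log2 fold change -5.38 ± 0.27 (SE), adjusted p = 3.19e-06). CLSPN, which couples the replication fork to the checkpoint, had 1100, 648 and 1056 in DMSO and 30.9, 27.8 and 53.3 in lapatinib, FAM111B 3400, 2078 and 3614 in DMSO and 128, 154 and 165 in lapatinib, and CNIH2, a receptor trafficking gene of neurons, 341, 264 and 295 in DMSO and 16.6, 26.8 and 15.4 in lapatinib (log2 fold changes -4.61 ± 0.28 (SE), -4.31 ± 0.22 (SE) and -3.89 ± 0.21 (SE)).

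The same response was measured in cells with FOXA1 siRNA, which share no sample with those above, and the interaction term of siRNA with drug, over all 12 samples, gave the test of the difference. The response was smaller with FOXA1 siRNA for 886 of 14012 genes (6.32%) and larger for 119 (0.849%), where smaller and larger are read against the sign of the response with NT siRNA. These counts were 2348 and 499 with the block, and with 1 of the 12 samples left out they were 477 to 1203 and 67 to 175. Nucleolar ribosome biogenesis had the most, with a smaller response for 20 of 38 genes (31 with the block) and a list median of -0.68 (NT siRNA) and -0.38 (FOXA1 siRNA, the order used below). DNA replication had 14 of 44 (27 with the block), with medians of -1.79 and -1.25, and mitosis 8 of 59 (24 with the block), with -1.31 and -0.65. Of the rising lists, luminal transcription factors had a smaller response for 7 of 26 (11 with the block), with medians of 0.60 and 0.44. Luminal secretory products had 5 of 24 (9 with the block), with 1.11 and 0.77, and FOXO targets 5 of 20, with 0.96 and 0.89. With the block 1 member of each of these lists had a larger response. Among the ERK output genes 1 of 18 had a larger response (with the block 3 had a larger and 2 a smaller one), and the list median was -1.11 with either siRNA.

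For single genes the difference could be large. Apart from FOXA1, levels in the DMSO samples with FOXA1 siRNA are not given here. Whether genes already differed there before the drug was not tested. MYC fell by 0.50 on the log2 scale with NT siRNA and had 0.01 with FOXA1 siRNA (difference 0.52 ± 0.09 (SE), adjusted p = 0.00457). CDK1 had -2.57 and -1.09 (difference 1.50 ± 0.25 (SE), adjusted p = 0.00457). PIP had 2.49 and 0.55 (difference -1.93 ± 0.40 (SE), adjusted p = 0.0148), and LFNG 1.29 and -0.01 (difference -1.28 ± 0.18 (SE), adjusted p = 0.0024). ERBB2 rose with either siRNA, by 1.01 and 0.68 (difference -0.31 ± 0.08 (SE), adjusted p = 0.0424). For ERBB3, with 1.23 and 1.09, the difference did not pass (-0.13 ± 0.09 (SE), adjusted p = 0.466), nor did it for CCND1, with -2.18 and -2.33 (-0.14 ± 0.31 (SE), adjusted p = 0.856).

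**Figure D5:**
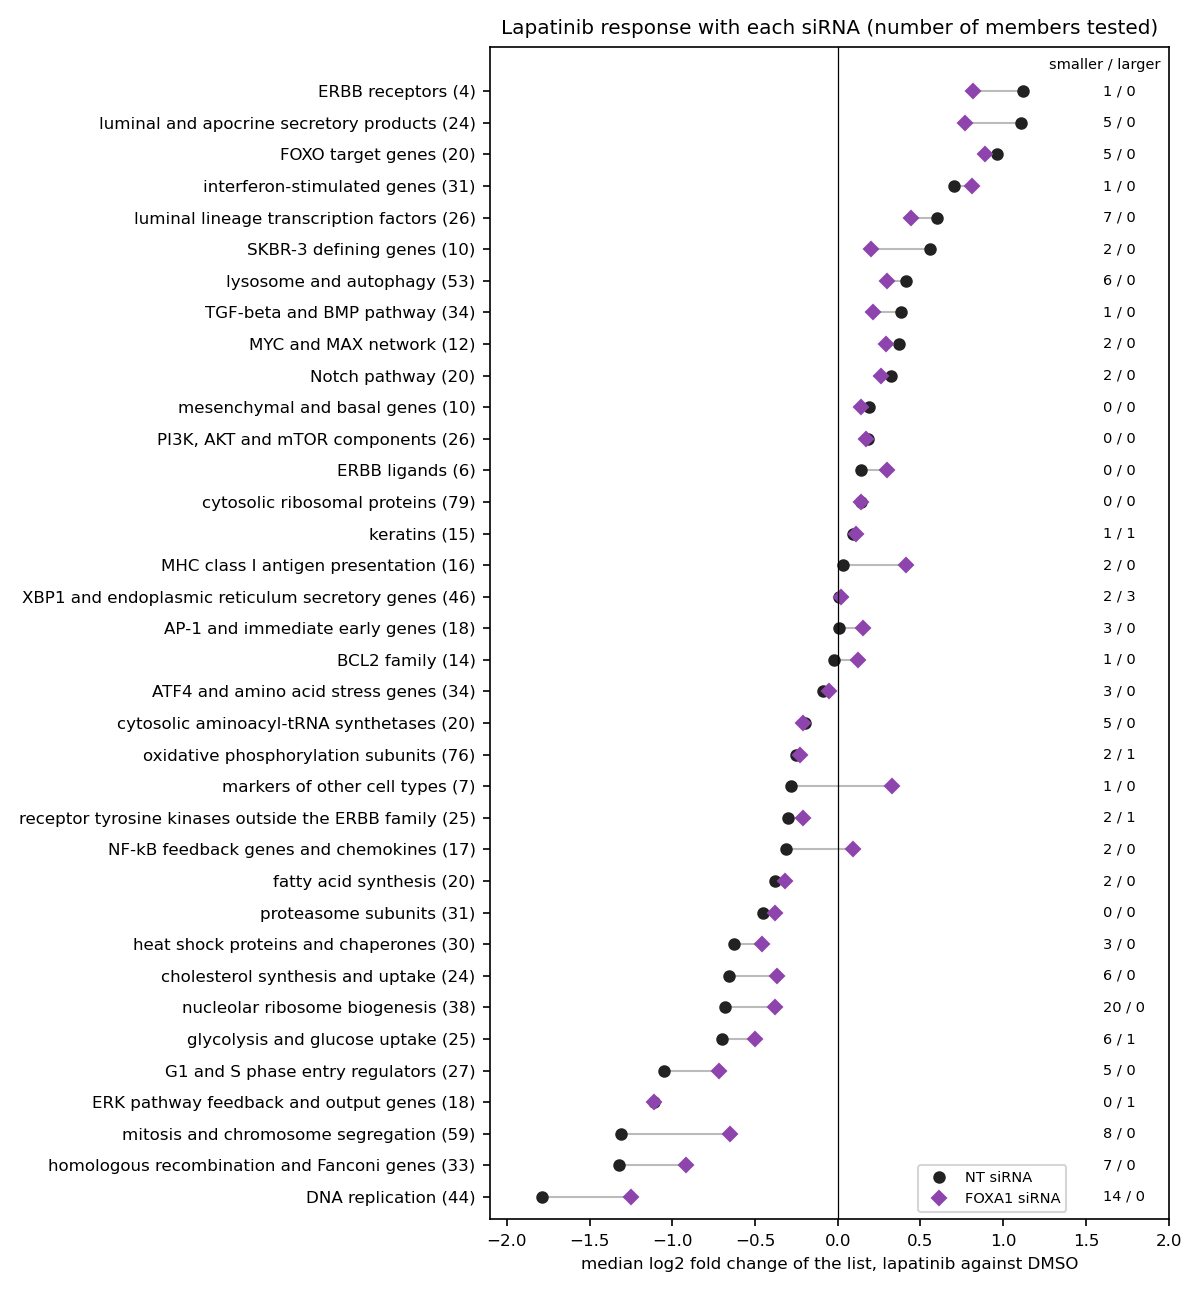
Median log2 fold change of lapatinib against DMSO for each list with NT siRNA (black circles) and with FOXA1 siRNA (purple diamonds), with the number of members tested in brackets. The numbers at the right are the members with a smaller and a larger response after FOXA1 siRNA at an adjusted p under 0.05; nucleolar ribosome biogenesis has the most, 20 of 38.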

How the data were processed

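RNA-seq of SKBR-3 cells was deposited by the authors as RSEM gene tables, 1 for each of 12 samples, that hold expected counts and TPM for 20531 genes with symbols and Entrez identifiers. The labels name DESeq, DESeq2 1.12.3, R 3.2.2 and RSEM, while the methods name STAR 2.4.2a and Salmon 0.60, and the transcript identifiers in the files are of the UCSC kind. The labels give 48 h and the methods 24 h of siRNA (25 nM) before the drug, and library kits are named differently in the labels and the extraction protocol, so strand use in counting is not known and overlapping or antisense genes cannot be told apart. Of the rows, 29 have no gene symbol. From 87.5% to 88.1% of the deposited expected counts were whole numbers, since RSEM shares reads that fit several genes.

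Expected counts were rounded and tested with the quasi-likelihood test of edgeR 4.0.16 in R 4.3.3, with TMM scaling, on the 3 lapatinib and 3 DMSO samples with NT siRNA. A gene entered the test if any of the 6 samples had 10 counts or more, and p-values were adjusted by the Benjamini-Hochberg method over the 13713 genes tested. Normalized counts are TMM-scaled to the mean depth of the 12 samples, SEs are the log2 fold change over the root of its F statistic, and TPM sums and means use the deposited TPM. The difference between the siRNAs was the interaction term of a fit to all 12 samples. DESeq2 1.42.0 and the other settings were alternatives. The edgeR step was also run on simulated data with a constant spread and few changed genes. These data differ in both, so that run is no check of the calls given here. Deviations of same-numbered DMSO and lapatinib samples from their group means correlated at r = 0.241, 0.448 and 0.338 over 12366 genes. Pairs with different numbers had r from -0.366 to 0.159. The labels do not say what the numbers stand for. The reported fits had no replicate term, and the fit with the replicate number as a block was an alternative. Tables and plots used Python 3.11.15 with pandas 2.3.3, numpy 2.4.6 and matplotlib 3.10.9.

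Gene lists and members were chosen with earlier results of these data known, so no list is independent support. Named genes were the 12 largest changes in each direction (called, at least 2-fold, no overlap, mean of at least 100 normalized counts) and, in each list, up to 4 called members in the direction with more calls and up to 2 in the other, with all members of a list of 4 or fewer, up to 2 that did not pass where needed, and ERBB2, ERBB3, EGFR, FOXA1, XBP1, MYC, CCND1, CDKN1B, MKI67, TXNIP and BCL2L11 whatever they did. A further 91 genes were named for their roles after their values were seen. Some genes of the lists and of the rule are not reported here.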

Additional observations from a re-analysis of the deposited data

Results flagged for a closer look

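These genes were singled out because the interaction of siRNA and lapatinib over the 12 samples passed the test, that is, because the response with NT siRNA and the response with FOXA1 siRNA differed. Each value is the log2 fold change with FOXA1 siRNA minus that with NT siRNA. It does not give the level before the drug, and whether that level already differed with FOXA1 siRNA was not tested. Every gene below also passed with the replicate number as a block, but that fit called far more genes (2348 and 499, against 886 and 119). With 1 sample left out the counts were 477 to 1203 and 67 to 175, and the calls of single genes there are not given. A group of 3 samples is too small for a test of single outlying samples. The genes were named because they passed, so they do not stand for their lists. A smaller response was called for 14 of 44 DNA replication, 8 of 59 mitosis, 7 of 33 recombination and 5 of 27 S phase entry genes. For nucleolar genes it was 20 of 38, for luminal factors 7 of 26 and for secretory products 5 of 24, against 6.32% of all genes.

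Among genes that fell with NT siRNA, some of DNA replication, repair and the cell cycle had a smaller response with FOXA1 siRNA. Their differences were 0.80 for E2F1, 0.66 for CDC6, 0.73 for MCM7, 0.63 for UHRF1, 0.55 for CHAF1A, 1.52 for BLM and 1.50 for CDK1 (adjusted p = 0.0044 to 0.0443). Some genes of ribosome assembly and MYC itself did likewise, with differences of 0.52 for MYC, 1.09 for BOP1, 0.61 for LYAR, 0.45 for NOLC1 and 0.46 for NOP16 (adjusted p = 0.0044 to 0.0224). For the tRNA synthetases and chaperones they were 0.54 for VARS1, 0.42 for FARSA, 0.40 for FARSB, 0.42 for CCT5 and 0.34 for CRELD2 (adjusted p = 0.00269 to 0.0227). For lipid and sugar metabolism they were 0.65 for INSIG1, 0.30 for DHCR7, 0.54 for EBP, 1.30 for ACSL4 and 0.58 for PFKP (adjusted p = 0.0105 to 0.0443). The log2 fold change of BOP1, for example, was -1.37 with NT siRNA against -0.29 with FOXA1 siRNA, and that of BLM -3.01 against -1.51. All of these genes had a negative log2 fold change with NT siRNA, and MYC alone had a value above zero with FOXA1 siRNA.

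Immune and surface genes that were lower with NT siRNA gave 1.42 for BIRC3, 1.50 for CCL2, 0.77 for TAP2, 1.43 for KRT13, 0.53 for EPCAM and 1.30 for CDH5 (adjusted p = 0.000656 to 0.0369). BIRC3, CCL2, CDH5 and KRT13 were negative with NT siRNA and positive with FOXA1 siRNA, at -0.68 and 0.73 for BIRC3 and -1.25 and 0.17 for KRT13. The fall of BIRC3 with NT siRNA did not pass with DESeq2 (adjusted p = 0.0775), without replicate 2 of both groups (0.0805), or without any 1 of the samples other than DMSO replicate 3. Transcription factor and Notch genes that were lower gave 1.26 for NR4A3, 0.40 for SRF and 0.53 for HES4 (adjusted p = 0.0143 to 0.0215).

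Some luminal and secretory genes that rose with NT siRNA had a smaller response with FOXA1 siRNA. Their differences were -0.79 for GATA3, -0.55 for KLF4, -0.53 for KLF5, -0.62 for EHF, -0.74 for ELF5, -1.93 for PIP and -0.87 for MUC15 (adjusted p = 0.00269 to 0.0339). GATA3 had 0.86 with NT siRNA and 0.06 with FOXA1 siRNA. Receptor, Notch and survival genes gave -0.31 for ERBB2, -0.85 for INSR, -0.24 for DDR1, -1.28 for LFNG, -0.58 for ACVR1 and -0.46 for BCL2L1 (adjusted p = 0.0024 to 0.0453). FOXO and MAX network genes and other large rises gave -0.92 for FBXO32, -0.73 for TXNIP, -1.36 for DEPP1, -0.42 for MXD1, -1.49 for NATD1, -0.84 for TCP11L2 and -2.61 for PALM2AKAP2 (adjusted p = 0.00224 to 0.0329). CHAF1B, which rose with NT siRNA at 0.43, had -0.30 with FOXA1 siRNA, a difference of -0.71 (adjusted p = 0.0044). A larger rise with FOXA1 siRNA was found for the kinase and the glucose carrier with differences of 0.36 for MET and 0.28 for SLC2A1 (adjusted p = 0.00782 to 0.0221). MET had 0.45 with NT siRNA and 0.80 with FOXA1 siRNA, and SLC2A1 0.29 and 0.56.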

How the results depend on the processing

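The numbers of genes higher and lower with lapatinib stayed within 1.5 times of the reported 4177 and 4007 under each alternative run, namely other scalings, DESeq2, other filters on low counts, all 12 samples in one model, the replicate block, an adjusted p under 0.01, each sample left out and replicate 2 of both groups left out. They ranged from 3130 to 4725 and from 3092 to 4614, and the counts past 2-fold from 647 to 981 and from 788 to 1052. Leaving out 1 sample gave 3474 to 4086 genes higher and 3472 to 4211 lower, and with 2-fold 777 to 981 and 917 to 1031. The 44 cytosolic ribosomal proteins called higher became 25 without NT siRNA DMSO replicate 3 (25 to 42 over the samples left out in turn) and 26 at an adjusted p under 0.01. Smaller counts of list members moved by over 1.5 times without 1 sample. Without DMSO replicate 1, glycolysis genes higher were 1 in place of 3, lysosome genes lower 1 in place of 3, and ERBB ligands and fatty acid genes higher 1 in place of 2 each. Without DMSO replicate 2, lysosome genes lower were 5, MHC class I genes higher 5 in place of 3, and keratins lower and chaperones higher 2 in place of 1. Without DMSO replicate 3, NF-kB genes higher were 1 in place of 3, lysosome genes lower 1, ERBB ligands and fatty acid genes higher 1 each and keratins lower 3. Without lapatinib replicate 1, S phase entry genes higher were 3 in place of 5 and lysosome genes lower 1. Without lapatinib replicate 2, oxidative phosphorylation genes higher were 6 in place of 3, ERBB ligands higher 1, and FOXO targets and keratins lower 2 in place of 1. Without lapatinib replicate 3, fatty acid genes higher were 1. Keratins lower were 2 to 4 with the other scalings, filters, tools and models. The replicate block made FOS, TRIB3, HSPA5, B2M, TNFAIP3 and KRT18 pass and changed no other call among the named genes.

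The counts of genes whose response differed between the siRNAs were less stable. The 886 with a smaller response became 2348 with the replicate block and 477 to 1203 with 1 sample left out, and the 119 with a larger response became 499 with the block, 189 with DESeq2 and 67 to 175 with 1 sample left out. The smaller count was lower by more than 1.5 times without FOXA1 siRNA DMSO replicate 1 (547) or 3 (487), FOXA1 siRNA lapatinib replicate 1 (477), NT siRNA DMSO replicate 1 (488) or 3 (537) and NT siRNA lapatinib replicate 3 (517). The larger count was 72, 75, 68, 67, 74 and 70 without those 6 samples in the same order, 76 without FOXA1 siRNA lapatinib replicate 3 and 71 without NT siRNA lapatinib replicate 1. The cause was not tested.

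Some named genes kept their direction but lost the call without 1 sample. Without DMSO replicate 1 these were ATR, BIRC3, CDKN1C, FGFR4, HK2, IFIT3, LMO4, NRG2, PFKFB3, SCGB2A1, SCGB2A2, SGK1 and UVRAG (adjusted p = 0.051 to 0.141). Without DMSO replicate 2 they were BIRC3, CDH1 and MUC4 (0.051 to 0.0857). Without DMSO replicate 3 they were ATR, CDH1, CDKN1C, FGFR4, HSF1, IFIT3, LMO4, MUC4, NRG2, PFKFB3, SCGB2A1, SGK1 and UVRAG (0.0521 to 0.144). Without lapatinib replicate 1 they were BIRC3, CDKN1C, CDKN2B, FGFR4, HK2, IFIT3, SGK1 and UVRAG (0.051 to 0.0812), without replicate 2 ATR, BIRC3, CDH1, CDKN1C, MUC4, NRG2, SCGB2A1, SGK1 and UVRAG (0.0509 to 0.143), and without replicate 3 ATR, BIRC3, CDH1, CDKN1C, FADS1, HK2 and SCGB2A1 (0.0521 to 0.131). DESeq2 did not call BIRC3, CDH1, CDKN1C, IFIT3, SCGB2A1 or SGK1 (0.0504 to 0.129), and it called FASN (0.0471), which passed without a filter too (0.0382). SCGB2A1 was lost without a filter (0.0563) and with upper-quartile scaling (0.0506). Without replicate 2 of both groups BIRC3, CDH1, EPGN, MUC4 and SCGB2A1 were lost (0.0754 to 0.124). Calls were gained there by B2M, FOS, HLA-B, HSPA5, KRT8, KRT18, NPM1, PMAIP1 and TRIB3 (0.00113 to 0.0442), without DMSO replicate 2 by HLA-B and KRT18 (0.0059 to 0.017), without lapatinib replicate 2 by FOS (0.0114), without lapatinib replicate 3 by BTC (0.00536) and with all 12 samples in one model by BTC (0.0378).

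The genes that changed sign did not pass in the reported fit and lay near zero. KRT19 was at -0.01 with DESeq2, RLE size factors or all 12 samples, at -0.02 without a filter, at 0 to 2 decimals with at least 10 counts in every sample, and at -0.03 to 0.07 with 1 sample left out. With 1 sample left out NPM1 was at -0.07 to 0.05 and TFF3 at -0.25 to 0.18, and TFF3 was at 0.06 without replicate 2 of both groups. With 3 samples a group, genes of few counts, such as FOSL1, FADS1, STC2 and IFIT3, are limited by counting error.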
